A study of Mus musculus with 24 samples.

Results

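A set of 10 genes, of 16118 in the deposited table, codes for surface proteins by which adipose progenitors are recognised and sorted, and was followed through inguinal white adipose tissue of young mice. They were taken by symbol from a given list: Pdgfra, Pdgfrb, Ly6a, Thy1, Cd34, Dpp4, Pi16, Cd55, Icam1 and F3, and all 10 were found and passed the filter on low reads. Poly(A) RNA of 24 mice was sequenced, 1 library per mouse, in 6 groups of 4: each sex at postnatal day 21 (p21), and each sex at day 28 (p28) after standard weaning (SW, parted from the mother at p21) or delayed weaning (DW, left with the mother). No mouse strain, transgene or drug is given for any group, and the p21 mice carry the SW label although they were taken at the age of parting. The study's design asks how another week with the mother alters this fat depot in each sex.

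White fat grows by enlarging adipocytes and by forming new ones from mesenchymal progenitors that lie in the connective tissue and along vessels. PDGFRα and PDGFRβ are receptor tyrosine kinases for platelet-derived growth factors, and PDGFRα, SCA-1 (Ly6a), CD34 and THY1 are commonly used to sort these cells. In subcutaneous fat, cells positive for DPP4, CD55 and PI16 are described as early interstitial progenitors, ICAM1-positive cells as committed preadipocytes, and CD142-positive (F3) cells as a population that can restrain adipogenesis. None of the proteins is exclusive to progenitors: endothelial cells also carry CD34 and SCA-1, mural cells PDGFRβ, T cells THY1, and leukocytes CD55 and ICAM1. In whole tissue, fewer cells of a type and less RNA per cell cannot be told apart.

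Of the 10 genes, 7 had a promoter entry in RefSeq (GRCm38.p6). The 250 bases upstream of the start are shown, 5′ to 3′ on the gene's strand, for Cd55, Pi16 and Cd34. These 3 genes were called higher at p28 than at p21 over the sexes, Cd34 under DW only, and differ in these letters. F3, called higher under SW only, also had an entry and is not shown. Capitals mark matches to CCAAT or GGGCGG on either strand (ATTGG and CCGCCC on the other); TATAAA was searched in the same way.
Cd55, chr1:130462745-130462994, minus strand: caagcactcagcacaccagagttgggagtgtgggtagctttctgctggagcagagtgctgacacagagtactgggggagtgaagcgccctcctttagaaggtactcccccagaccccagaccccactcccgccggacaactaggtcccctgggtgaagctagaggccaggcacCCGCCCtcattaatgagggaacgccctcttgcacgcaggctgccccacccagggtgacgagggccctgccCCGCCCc
Pi16, chr17:29318632-29318881, plus strand: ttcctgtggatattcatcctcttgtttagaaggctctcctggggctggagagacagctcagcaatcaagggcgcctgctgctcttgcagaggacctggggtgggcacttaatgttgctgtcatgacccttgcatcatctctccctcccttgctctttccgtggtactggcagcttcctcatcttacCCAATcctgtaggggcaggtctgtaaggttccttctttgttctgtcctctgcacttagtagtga
Cd34, chr1:194938571-194938820, plus strand: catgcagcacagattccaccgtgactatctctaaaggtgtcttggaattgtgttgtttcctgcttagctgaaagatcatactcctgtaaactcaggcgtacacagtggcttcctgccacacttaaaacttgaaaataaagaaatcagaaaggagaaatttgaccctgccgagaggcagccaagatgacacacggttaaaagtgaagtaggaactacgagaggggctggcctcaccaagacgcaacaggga
Cd55 holds 2 matches to GGGCGG, Pi16 holds 1 to CCAAT, and Cd34 holds none of the 3 motifs. Among 32851 mouse promoter windows of the same length, 33.8% hold CCAAT, 32.7% GGGCGG and 12.4% TATAAA, so such matches are common. The GC content of the windows was 64% for Cd55, 52.4% for Pi16 and 46.4% for Cd34, beside a median of 52.4% over all windows. A match describes the letters and is no evidence of binding.

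Libraries held 57600711 to 302145813 recovered reads over the listed genes, and each marker had between 1429 and 49071 reads in every library, so counting error was small beside the spread between mice. The labelled tissue was met by its markers: 7 adipocyte genes (Adipoq, Plin1 and others) summed to between 4653 and 8244 normalised units in every library, and mesothelial genes to at most 9.43. Markers of other tissues varied widely between libraries. Skeletal muscle genes summed to between 1.58 units (p21 male 54) and 5492 (DW male 86). T cell sums ranged from 203 to 581 units and B cell sums from 229 to 625. The library of p21 male 53 had the fewest reads and 14054 genes detected, against 15497 to 16066 in the others. DW females 82 and 83 had the lowest mitochondrial shares of reads among the p28 libraries (13.2% and 13.7%). Calls that changed without these libraries are given beside the results.

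Per kilobase of exon, Ly6a was the most abundant marker, with a mean over 24 mice of 103 ± 29.5 (SD) normalised units, above 98.2% of genes. Thy1 followed at 40.3 ± 7.65 units per kilobase, then Cd34 at 28.9 ± 5.92 and Pdgfrb at 20.5 ± 3.65. Pi16 (13.4 ± 5.15), Cd55 (10.9 ± 2.00), F3 (10.5 ± 2.03), Dpp4 (7.87 ± 1.56), Pdgfra (7.19 ± 1.61) and Icam1 (5.58 ± 0.96) lay close together in units per kilobase. Pi16, Cd55 and F3 differed from each other by less than the SD of Pi16 between mice, as did Dpp4 from Pdgfra by less than the SD of either. Pi16 had the widest span, with a 6.23-fold range of normalised value from the lowest to the highest mouse, and Icam1 the narrowest at 1.88-fold. The values below are normalised units without division by length, and are compared only within a gene.

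**Figure D1:**
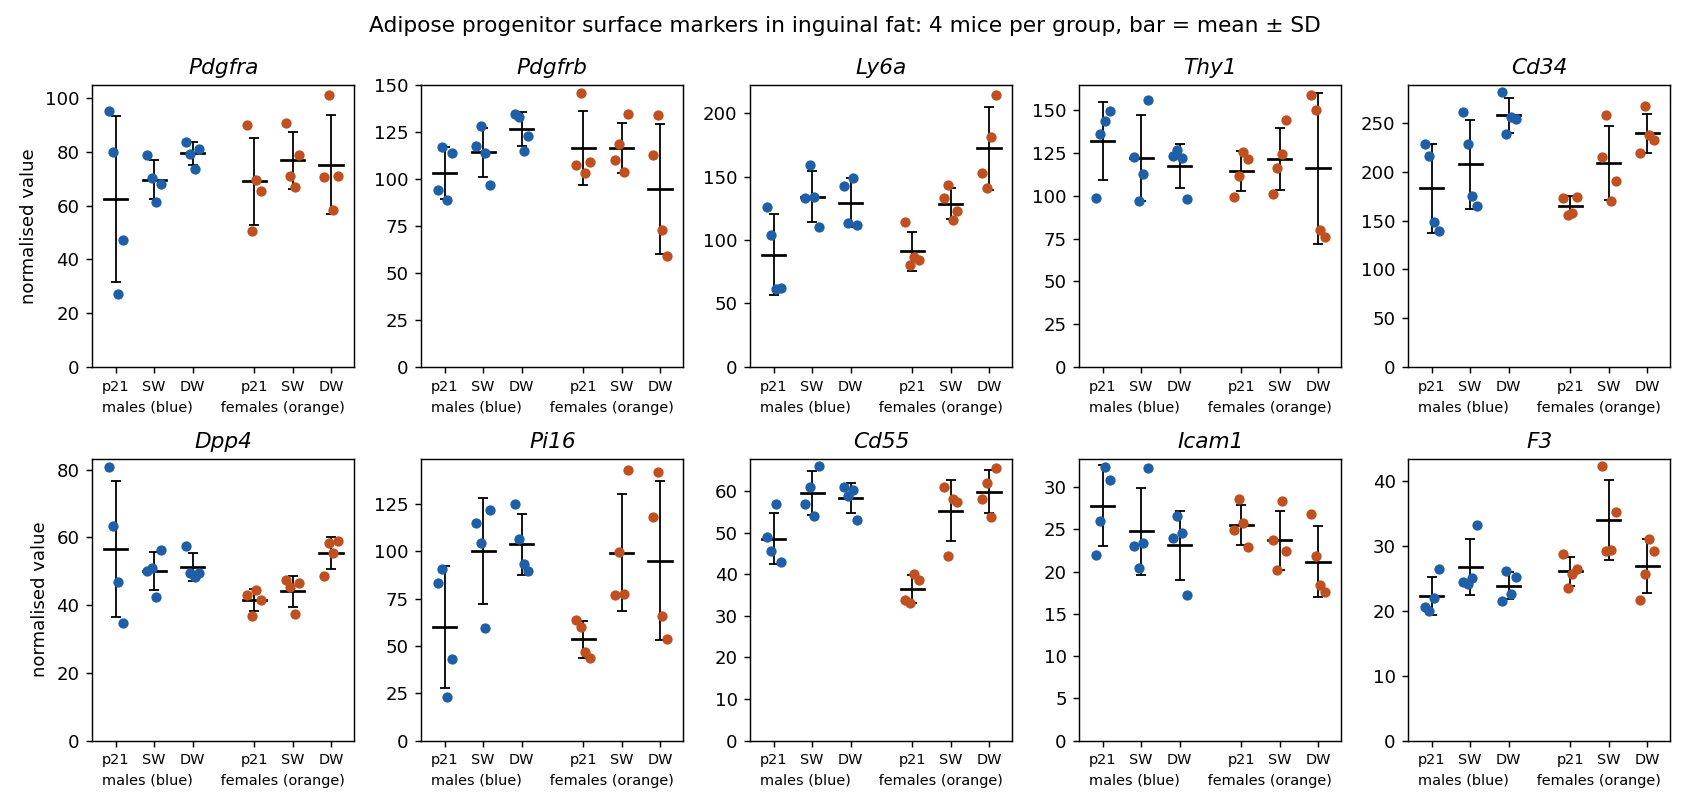
Normalised value (vertical axis, from 0) of each marker in each of 24 mice, by group of 4 (horizontal axis; blue males, orange females); bars are the mean and SD. All 4 females at p28 SW and all 4 at p28 DW lie above every p21 female for Ly6a and Cd55, whereas the groups of Pdgfra, Thy1 and Icam1 overlap.

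Ly6a, which codes for the GPI-anchored antigen SCA-1, was higher at p28 than at p21 under either weaning schedule. In p21 males its values were 126, 104, 61.3 and 62.3 units, in SW males 133, 159, 134 and 110, and in DW males 143, 113, 149 and 112. In p21 females they were 114, 80.0, 86.8 and 83.9, in SW females 133, 143, 116 and 123, and in DW females 153, 141, 182 and 214. All p28 females were above all p21 females, whereas p21 male 37 reached into the range of the p28 males. Averaged over the sexes, Ly6a rose by 0.58 ± 0.14 on the log2(value + 1) scale (SE; 1.49-fold) from p21 to p28 SW (limma adjusted p = 0.00353) and by 0.75 ± 0.14 (1.69-fold) to p28 DW (limma adjusted p = 0.000399). The p21 animals are shared by these comparisons, which are therefore not independent. Ly6a belongs to a family of similar neighbouring genes, and how reads matching several of them were counted is not given in the sources used here.

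Cd34, which codes for a sialomucin of progenitor and endothelial cells, rose from p21 to p28 DW. The p21 males were at 228, 216, 149 and 140 units and the p21 females at 173, 156, 158 and 175. In DW mice the males were at 282, 239, 257 and 254 and the females at 219, 268, 238 and 233, so that in each sex every DW mouse was above every p21 mouse. The SW males (262, 229, 176 and 165) and SW females (216, 259, 171 and 191) overlapped with both other groups of their sex. The mean change over the sexes was 0.53 ± 0.11 log2 for DW against p21 (1.44-fold, limma adjusted p = 0.00174) and 0.26 ± 0.11 for SW against p21 (limma adjusted p = 0.0976). The difference between them, DW minus SW, was 0.27 ± 0.11 (95% interval 0.04 to 0.50) and missed the threshold (limma adjusted p = 0.218), so a rise under DW alone was not shown. The change to SW passed in 1 of 23 other settings, without p21 male 37 (limma adjusted p = 0.0413). Beside this, the endothelial marker list had 2 of 6 genes higher at p28 in each of these comparisons with p21. Of all genes, 14.8% were called higher for SW and 12.3% for DW. For DW minus SW, 0 of the 6 endothelial genes were called, with a median log2 change of -0.20 over the sexes. The part of endothelial cells in the Cd34 and Ly6a values was not tested.

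Pdgfra, Pdgfrb and Thy1 passed the test in no comparison. Pdgfra, the receptor most often used to trace adipose progenitors, had values of 95.2, 79.9, 27.1 and 47.0 units in p21 males and 90.2, 50.7, 69.6 and 65.4 in p21 females. Its p28 group means were between 69.7 ± 7.17 (SD, n = 4, SW males) and 79.5 ± 4.27 (DW males), inside the p21 range. The log2 change over the sexes was 0.24 for SW against p21 (95% interval -0.14 to 0.62) and 0.31 for DW against p21 (-0.07 to 0.69). In males alone the SW change of 0.31 became -0.03 without p21 male 53. The DW change in males, 0.50 with all mice, became 0.16 without male 53, but passed without p21 male 37 (limma adjusted p = 0.0399).

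Pdgfrb, also a pericyte receptor, had group means of 94.8 to 126.6 units, and every neighbouring pair in that order overlapped. In DW females it was 113 and 134 units in mice 76 and 77 and 72.9 and 59.1 in mice 82 and 83. Its change in females from p21 to DW was -0.35 ± 0.18 log2 (limma adjusted p = 0.212), and 0.09 without those 2 mice. Without DW female 77 it passed as a fall (limma adjusted p = 0.0324). Thy1, a GPI-anchored glycoprotein, showed the same division: 159 and 150 units in DW females 76 and 77, and 80.3 and 75.7 in 82 and 83. Thy1 group means spanned only 115 to 132 units. Its changes over the sexes were -0.02 for SW against p21 (95% interval -0.32 to 0.28) and -0.11 for DW against p21 (-0.40 to 0.19). The T cell list, whose cells carry THY1, fell in 5 of 6 genes in the former comparison and 3 of 6 in the latter; its part in the Thy1 values was not tested.

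Of the interstitial progenitor markers, Pi16 and Cd55 were higher at p28 and Dpp4 was not called. Pi16, a secreted or GPI-anchored peptidase inhibitor, had 83.4, 90.4, 22.9 and 43.0 units in p21 males and 63.5, 60.2, 46.7 and 43.9 in p21 females. The SW males were at 115, 104, 59.6 and 122 and the SW females at 76.7, 99.7, 77.5 and 143. In DW males the values were 125, 106, 93.5 and 89.7, and in DW females 118, 142, 66.01 and 53.6. Only the p21 and SW females were fully apart. Over the sexes Pi16 rose by 0.86 ± 0.25 log2 to p28 SW (1.81-fold, limma adjusted p = 0.0138) and by 0.84 ± 0.25 to p28 DW (1.79-fold, limma adjusted p = 0.0174), while no change within a single sex passed (limma adjusted p from 0.068 to 0.186). The values within a sex turned on single mice. In females the change to DW was 0.72 ± 0.35, and 1.28 ± 0.39 without DW females 82 and 83 (limma adjusted p = 0.0477). In males the change was 0.96 to DW and 0.87 to SW. That to DW passed in 2 of 15 other settings, without p21 male 37 (1.18, limma adjusted p = 0.0329) or 38 (1.22, limma adjusted p = 0.0289). That to SW passed in 1 of 15, without male 38 (1.13, limma adjusted p = 0.0485). Mice 37 and 38 had the highest Pi16 of the p21 males. Over the other settings the change ran from 0.57 to 1.63 for DW and from 0.45 to 1.68 for SW. The lowest values left out p21 male 53, which had the lowest Pi16 of its group, and for SW also SW male 84.

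Cd55, the decay-accelerating factor that limits complement on the cell surface, had the smallest standard error of the 10 markers. In p21 females it was 33.9, 33.1, 39.9 and 38.6 units, in SW females 60.99, 44.5, 58.1 and 57.3, and in DW females 58.1, 61.9, 53.7 and 65.6. In males the corresponding values were 48.9, 45.5, 56.8 and 42.9 at p21, 56.8, 61.03, 54.0 and 66.1 in SW, and 60.9, 58.8, 60.2 and 53.0 in DW. Females at p21 were below all p28 females, while in males the highest p21 mouse (53) lay within both p28 ranges. Over the sexes Cd55 rose by 0.44 ± 0.08 log2 to SW (1.35-fold, limma adjusted p = 0.000225) and by 0.48 ± 0.08 to DW (1.40-fold, limma adjusted p = 0.000101). In females alone it rose by 0.58 ± 0.11 to SW and by 0.70 ± 0.11 to DW (limma adjusted p = 0.000734 and 0.000273). In males it was 0.29 ± 0.11 and 0.26 ± 0.11 higher, which did not pass (limma adjusted p = 0.0779 and 0.0985); the former passed without p21 male 53 (limma adjusted p = 0.037). The difference between the sexes in these changes was not called either (limma adjusted p = 0.666 for SW and 0.180 for DW).

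Macrophage markers, like Cd55, were higher at p28 than at p21. All 5 (Adgre1, Cd68, Csf1r, Mrc1 and C1qa) were higher at p28 SW and at p28 DW than at p21 over the sexes, and their summed value was 117 to 211 units in the p21 libraries and 233 to 427 in the p28 libraries. The genes nearest to Cd55 across the 24 mice were Lyz2, Ctsh and Cd33, genes known from myeloid cells (Pearson r = 0.92, 0.91 and 0.91 on log2(value + 1)). Taken as deviations from the group means, those r were 0.82, 0.69 and 0.80. Within groups, the macrophage sum and Cd55 did not always go together. Among p21 males, mouse 53 had the lowest macrophage sum (117 units) and the highest Cd55 (56.8). That mouse also had the highest B cell and T cell sums of the 24 mice (625 and 581 units) and the library with the fewest reads. DW female 83 had a macrophage sum of 233 units, against 394 and 427 in mice 76 and 77, and the highest Cd55 of the DW females (65.6). DW female 82 was low in both (235 and 53.7 units). The part of macrophages in the Cd55 values was not tested.

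Dpp4, the dipeptidyl peptidase that gives the interstitial population its name, was 80.9, 63.5, 46.8 and 34.7 units in p21 males and 42.9, 36.8, 44.4 and 41.5 in p21 females. Its p28 means were 49.997 ± 5.70 in SW males, 51.1 ± 4.15 in DW males, 44.1 ± 4.54 in SW females and 55.3 ± 4.68 in DW females (SD, n = 4). All 4 DW females were above all SW and all p21 females, but neither difference passed. It was 0.32 ± 0.17 log2 against SW (limma adjusted p = 0.291) and 0.41 ± 0.17 against p21 (limma adjusted p = 0.111). The difference from p21 passed in 1 of 15 other settings, with mammary, muscle, T cell and B cell scores as covariates (limma adjusted p = 0.0180). Over the sexes Dpp4 changed by -0.01 to SW (95% interval -0.26 to 0.23) and by 0.17 to DW (-0.08 to 0.41).

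Icam1, an adhesion ligand of leukocyte integrins and the marker used for committed preadipocytes, had its highest group mean at p21 in each sex. Males at p21 ranged from 21.9 to 32.4 units, p21 females from 22.9 to 28.6, the SW mice from 20.2 to 32.2 and the DW mice from 17.3 to 26.8, with every neighbouring pair of groups overlapping. Its log2 change from p21 over the sexes was -0.14 for SW (95% interval -0.37 to 0.10) and -0.27 for DW (-0.50 to -0.03), and neither passed (limma adjusted p = 0.403 and 0.0959). The fall to DW passed in 2 of 24 other settings, without p21 male 37 and without DW female 76 (lowest limma adjusted p = 0.0393).

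F3, which codes for tissue factor, the starter of blood coagulation, was highest in SW females. The SW females were at 42.3, 29.2, 29.4 and 35.2 units, the p21 females at 28.8, 23.4, 25.6 and 26.5, and the DW females at 21.7, 25.7, 31.1 and 29.2. In males the values were 20.6, 19.9, 22.0 and 26.5 at p21, 24.4, 24.1, 25.1 and 33.2 in SW, and 21.6, 26.1, 22.6 and 25.2 in DW. SW females lay above p21 females with a narrow gap, and the DW groups overlapped with both other groups of their sex. Over the sexes F3 rose by 0.30 ± 0.10 log2 to SW (1.23-fold, limma adjusted p = 0.0225), but not without SW male 124 or without SW female 73 (limma adjusted p = 0.0538 and 0.0548). The change to DW was 0.07 ± 0.10 (limma adjusted p = 0.650).

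**Figure D2:**
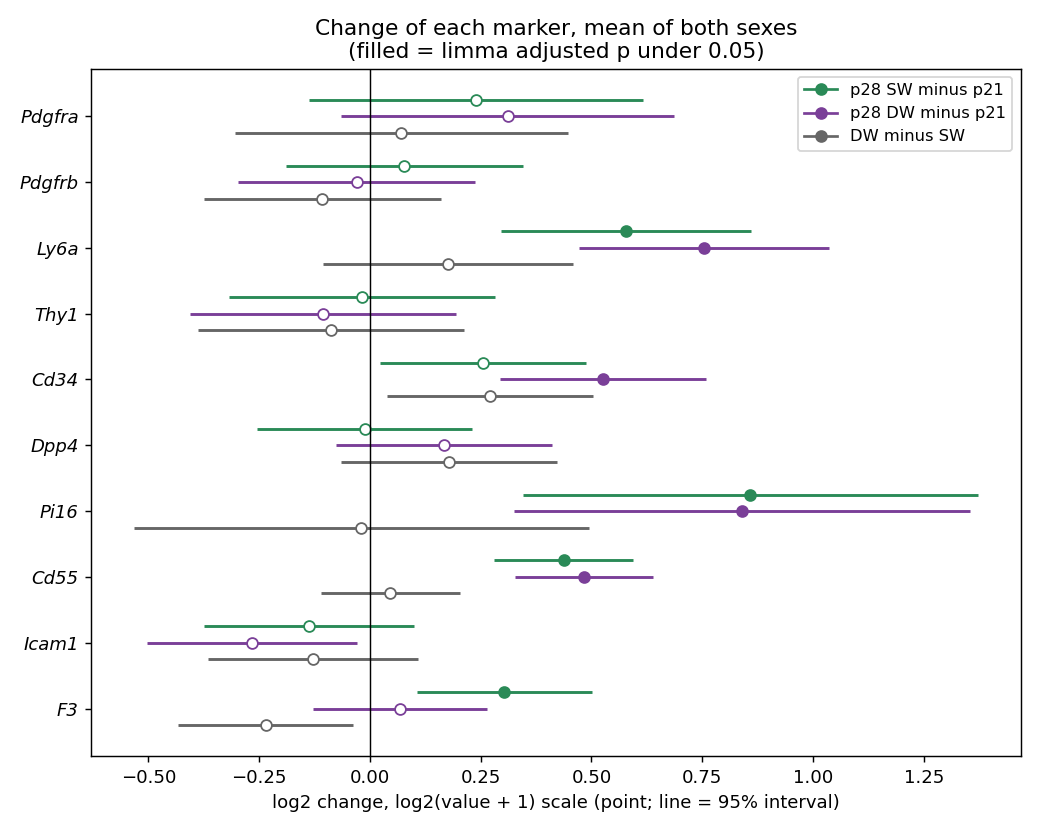
Log2 change of each marker averaged over the sexes (horizontal axis, log2(value + 1) scale; lines are 95% intervals) for p28 SW minus p21, p28 DW minus p21 and DW minus SW. Filled points passed the limma adjusted p threshold of 0.05: Ly6a, Pi16 and Cd55 in both comparisons with p21, F3 in the former, Cd34 in the latter, and none in DW minus SW.

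Counted over the list, 4 of the 10 markers were called for p28 SW against p21 averaged over the sexes, all higher, when 25.8% of all genes tested were called and 14.8% were called higher. The same number, 4 of 10, all higher, was called for p28 DW against p21, where 22.8% of genes were called and 12.3% higher. The median log2 change of the 10 markers was 0.25 and 0.24 in these comparisons, beside 0.02 and 0.01 for all genes. Within males, 1 marker was called for SW (Ly6a, 0.65 ± 0.19, limma adjusted p = 0.0299; 11.9% of genes called, 6.90% higher) and 2 for DW (Ly6a, 0.60 ± 0.19, and Cd34, 0.52 ± 0.16, limma adjusted p = 0.0393 and 0.0300; 15.0% called, 8.86% higher). Within females, 1 was called for SW (Cd55; 11.6% called, 7.39% higher) and 3 for DW (Ly6a, 0.91 ± 0.19; Cd34, 0.53 ± 0.16; Cd55; 12.1% called, 5.95% higher). The shares for SW in a single sex, 1 of 10, were near the share of all genes. All counts within males fell to 0 without p21 male 53 and SW male 84. The call of Ly6a for SW in males was also lost without any 1 of p21 males 53 and 54 or SW males 78, 84 and 85. For DW in males, the calls of Ly6a and Cd34 were each lost without any 1 of p21 males 53 and 54 or DW males 79, 86 and 87. In females the DW calls of Ly6a and Cd34 did not pass without DW females 82 and 83 (0.70 ± 0.23 and 0.55 ± 0.20, limma adjusted p = 0.0623 and 0.0942). The female Cd34 call was also lost without any 1 of p21 females 30, 36 and 55 or DW females 77, 82 and 83, and was kept in 7 of 15 other settings.

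Delayed weaning was not seen to change any of the 10 markers. None was called for DW minus SW in males, in females or over the sexes, where 0.256%, 1.27% and 2.21% of all genes were called. With so few of all genes called, 0 of 10 is near the background. At an unadjusted limma p under 0.05 there were 1, 2 and 2 of 10 markers, near the 6.94%, 18.9% and 17.4% of all genes at that limit, and edgeR and DESeq2 also called none. The intervals still allow sizeable differences: over the sexes they ran from -0.53 to 0.50 log2 for Pi16, from -0.31 to 0.45 for Pdgfra and from -0.11 to 0.20 for Cd55. F3 had the smallest adjusted p, at -0.24 ± 0.10 (limma adjusted p = 0.209). In the authors' deposited table, the column headed padj gives 0.0245 for F3 and 0.0399 for Ly6a in females, DW against SW. Nearly all values in that column are distinct (16105 of 16108), which adjusted values seldom are. The values stand near limma's unadjusted p of 0.0257 and 0.0467, and whether the column is adjusted is not known.

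Males and females did not differ in any marker by the threshold at p21, p28 SW or p28 DW, where 0.356%, 3.54% and 2.46% of genes were called. The unadjusted limma p was under 0.05 for 2, 1 and 2 of 10 markers, beside 8.60%, 9.16% and 19.7% of all genes. Cd55 at p21 was 48.5 ± 6.04 units in males and 36.4 ± 3.42 in females (SD, n = 4), with no overlap, a difference of 0.40 ± 0.11 log2 (limma adjusted p = 0.161; DESeq2 adjusted p = 0.0442). Pdgfrb in DW mice was 126.6 ± 9.10 in males and 94.8 ± 34.9 in females, 0.49 ± 0.18 log2 apart (limma adjusted p = 0.156), and 0.04 apart without DW females 82 and 83. No interaction with sex was called for any marker: 0.0187% of genes were called for the weaning effect, 1.03% for the SW age effect and 0.0687% for the DW age effect. At an unadjusted limma p under 0.05 there were 0, 0 and 2 of 10 markers (Cd55 and Pdgfrb for the DW age effect), beside 5.09%, 8.15% and 17.0% of all genes, and their limma adjusted p were 0.180 and 0.223.

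**Figure D3:**
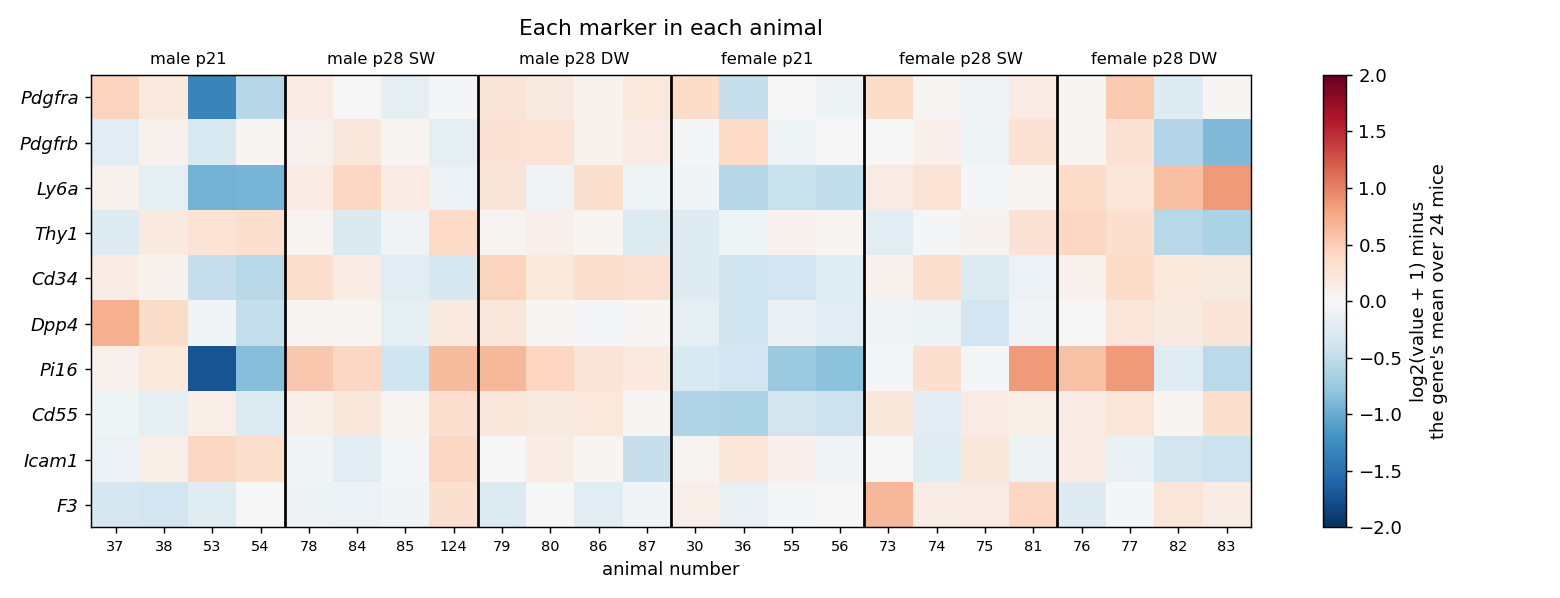
Log2(value + 1) of each marker (rows) in each mouse (columns, by group and animal number) minus the marker's mean over 24 mice; red is higher, blue lower. P21 males 53 and 54 are low for Pdgfra, Ly6a, Cd34 and Pi16, and DW females 82 and 83 are low for Pdgfrb and Thy1 and high for Ly6a.

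Much of the spread lay between mice of 1 group. Among p21 males, mice 37 and 38 exceeded mice 53 and 54 in Pdgfra, Ly6a, Cd34, Dpp4 and Pi16, by 1.26, 0.88, 0.62, 0.81 and 1.44 on the log2(value + 1) scale, whereas Cd55 differed by -0.06 and Pdgfrb by 0.06. The 8 matrix genes (collagens, Dcn, Lum, Fbn1 and Mfap5) followed the same division, with sums of 11703 and 13770 units in mice 37 and 38 and 4796 and 5841 in mice 53 and 54. Macrophage sums did as well (207 and 211 units against 117 and 137). Icam1, Thy1 and F3 went the other way, with log2 differences of -0.39, -0.34 and -0.24, and so did the blood and lymphoid lists. In mice 53 and 54 erythroid sums were 882 and 752 units, against 329 and 280. B cell sums were 625 and 438 against 281 and 299, and T cell sums 581 and 426 against 394 and 331. In p21 females, mice with numbers 30 and 36 differed from 55 and 56 by 0.00 for Pdgfra and 0.44 for Pi16, so the division of males was not repeated in size. These pairs of males were noticed in the values, carry no label that tells them apart other than the run of animal numbers, and were not compared by a test. DW females 82 and 83 differed from 76 and 77 in a different set of markers: Pdgfrb, Thy1, Pi16 and Icam1 were lower in both mice and Ly6a and F3 higher. Their sums over 9 other committed preadipocyte genes were 3023 and 2288 units, against 6569 and 6650 in mice 76 and 77. Macrophage sums were 235 and 233 units against 394 and 427, endothelial sums 1055 and 938 against 1487 and 1543, Schwann sums 224 and 211 against 547 and 491, and mammary sums 98.3 and 100.1 against 215 and 195. Interstitial, CD142-positive, PDGF ligand, matrix, adipocyte, mural and erythroid sums were lower in mice 82 and 83 as well, and the proliferation sums were higher. The part of these cells in the marker values was not tested.

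Other genes of the same populations did not move as 1 group. Beside the counts against p21 below, 25.8% of all genes were called for SW over the sexes and 14.8% were called higher. For DW the shares were 22.8% and 12.3%. Of 10 other interstitial progenitor genes, 3 were higher at p28 SW than at p21 over the sexes (Wnt2, 0.63 ± 0.15; Dact2, 0.85 ± 0.26; Anxa3, 0.28 ± 0.09) and none lower. For p28 DW, 4 were higher (Sema3c, 0.80 ± 0.21; Wnt2, 0.58 ± 0.15; Creb5, 0.54 ± 0.17; Anxa3, 0.53 ± 0.09) and none lower. Wnt2 is a secreted Wnt ligand and Sema3c a secreted semaphorin. The 9 other committed preadipocyte genes went in different directions. Dlk1, a transmembrane inhibitor of adipogenesis, fell by 1.63 ± 0.18 to SW and by 1.49 ± 0.18 to DW, and Ebf2 fell in both. Sparcl1 rose by 0.58 ± 0.11 and 0.55 ± 0.11. Pparg, the master regulator of adipocyte formation, fell by 0.47 ± 0.11 to SW, while Apoe (SW) and Col4a1 (DW) rose. In all, 2 of the 9 rose and 3 fell to SW, and 2 rose and 2 fell to DW.

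Of 6 other genes of CD142-positive cells, Igfbp3, an IGF-binding protein, fell by 0.80 ± 0.16 to SW and by 0.69 ± 0.16 to DW, and no other passed. Among the 4 ligands of the PDGF receptors, Pdgfd rose by 0.30 ± 0.09 to SW and by 0.40 ± 0.09 to DW, and Pdgfa fell by 0.36 ± 0.10 to DW, while their receptors Pdgfra and Pdgfrb were not called. Of the 8 matrix genes, 0 were called for SW, and Lum (0.54 ± 0.17) and Mfap5 (0.70 ± 0.18) rose to DW. None of these lists had a called gene for DW minus SW. The 6 proliferation genes did: all were higher in DW than SW over the sexes, with Mki67 at 0.88 ± 0.10 and Prc1 at 1.21 ± 0.13 log2 (limma adjusted p = 3.2e-05 for each), beside 0 of the 10 progenitor markers. Which cells carried the proliferation transcripts cannot be read from whole tissue. Erythroid markers (4 of 4) fell in both comparisons with p21. Over the sexes, skeletal muscle (6 of 6) and mammary epithelial markers (5 of 8) were higher at p28 SW than at p21. By sex, the muscle genes were called in males only (6 of 6, against 0 of 6 in females). The mammary genes were called in females only (6 of 8, against 0 of 8 in males). The part of these lists in the marker values was not tested beyond the fit with tissue scores described in the closing section.

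**Figure D4:**
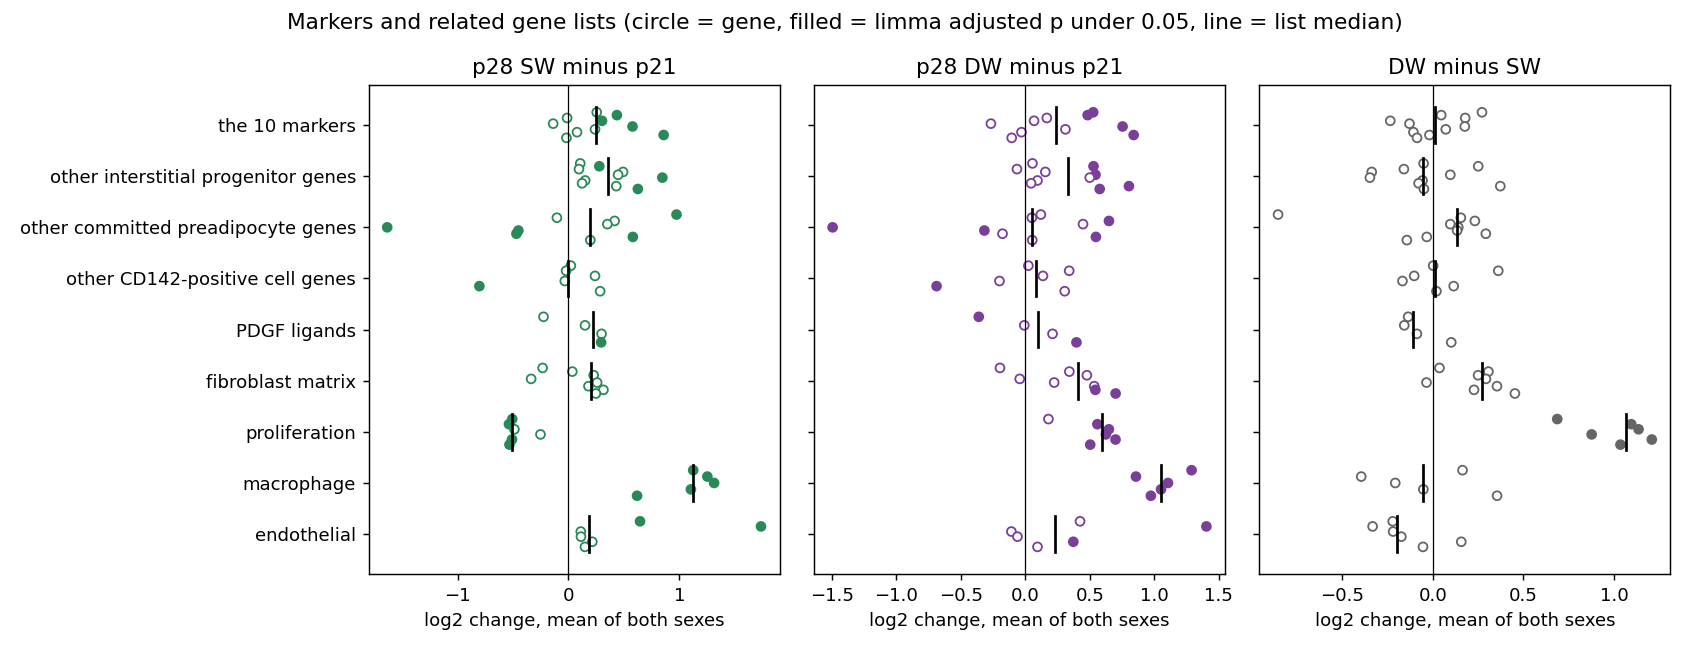
Log2 change averaged over the sexes (horizontal axis) of each gene, by list (rows), in the 3 comparisons; filled circles passed the limma adjusted p threshold of 0.05 and black lines are list medians. In DW minus SW only the 6 proliferation genes are filled among the lists drawn, and the 5 macrophage genes are filled in both comparisons with p21.

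The genes most like each marker across the 24 mice, by Pearson r of log2(value + 1) among 9942 genes, are given as a description. Pi16 was nearest to Scara5 (r = 0.94), Pamr1 and Man1c1, and Pdgfra to Adamtsl1 (r = 0.90), Ust and Gpc6. Dpp4 was nearest to Ildr2 (r = 0.84), Ogn and Sfrp2, Cd34 to Fstl1 (r = 0.89), F13a1 and Sema3c, and Ly6a to Abca5 (r = 0.88), Dpt and Gvin2. Pdgfrb was nearest to Cdc42bpb (r = 0.94), Rusc2 and Ece1, Thy1 to Csk (r = 0.91), Vtn and Sf3b4, and Icam1 to Grk2 (r = 0.89), Lsp1 and Gramd1a. No marker was among the 3 genes nearest to another. F3 stood apart in having no near gene: its nearest, Plekhh2, reached r = 0.66, and 0.28 as deviations from the group means. All points share the libraries, their scaling and the group differences, and the mice that stand apart weigh on each r.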

How the data were processed

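Per the submitters' processing notes, fastp, HISAT2, featureCounts and DESeq2 1.38.3 were used with the mm10 build; strand and multi-mapping settings are not given in the sources used here. The deposited values are a normalised signal: reads of a gene divided by a factor of the library. All values (100%) were whole multiples of each library's smallest step, so whole reads were recovered. The deposited table also holds log2 fold changes and p-values, per the file headers, used only where their table is named. Only 2.23% of deposited gene starts equalled those of GENCODE M21, so no deposited coordinate is printed.

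After 90 identical repeated rows were left out, 16005 of 16118 genes passed filterByExpr (minimum count 10). The 24 samples entered 1 limma fit (3.58.1, R 4.3.3; variance trend, 18 residual degrees of freedom) on log2(value + 1), with a coefficient per group; Benjamini-Hochberg adjusted p under 0.05 over all genes was called. A change averaged over the sexes is the mean of the male and female contrasts. Folds refer to value + 1, so those of low genes are understated. The same contrasts on recovered reads were run with edgeR 4.0.16, which called 3790 genes for SW against p21 over the sexes, and DESeq2 1.42.0; the fit was tested on simulated data. No replicate pair agreed within sampling noise. Exon lengths came from GENCODE M21.

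Groups followed the age, sex and weaning labels; titles of p21 libraries give another age, and 1 p21 female another number, and the description was followed. No animal number occurs in 2 groups, so nothing was paired. The p-values set group differences against the spread between these mice and treat the mice as independent. Whether mice shared a litter is not given, so that independence could not be checked. All 10 markers are named in each comparison, with context lists and the 3 nearest genes of each. The markers and lists were chosen with earlier results of these data known.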

Additional observations from a re-analysis of the deposited data

Results flagged for a closer look

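In 4 of 60 groups of 4 mice (10 markers, 6 groups), 1 mouse lay far from the other 3 by Dixon's criterion; chance gives about 1 in 20 groups, or 3 of 60. Pdgfrb was 145.9 units in p21 female 36, against 103 to 109 in the other p21 females. Thy1 was 98.43 units in DW male 87, against 122 to 127 in the others. Dpp4 was 57.29 units in DW male 79, against 48.2 to 49.6. F3 was 33.2 units in SW male 124, against 24.1 to 25.1, and the rise of F3 to SW rests in part on this mouse.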

How the results depend on the processing

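Over the sexes, Ly6a stayed called in all 23 other settings for p28 SW against p21 and in all 24 for p28 DW. Pi16 and Cd55 in both, and Cd34 in DW, lost the call only when mammary, muscle, T cell and B cell scores were covariates. That fit left 1 marker called (Ly6a) in each comparison instead of 4, and 46 and 73 of all genes instead of 4134 and 3655; muscle, mammary and T cell genes also differed with age, and the cause was not tested. Within females the fit with these scores both added and removed calls against p21. It added Ly6a for SW and Dpp4 for DW, and lost Cd55 for SW and Cd34 for DW. Over the sexes, F3 also lost its call without SW male 124 or SW female 73. Counts within males were the least stable. For SW against p21 (1 called), 0 were called with edgeR, with only the compared groups, with tissue scores, and without p21 male 53 and SW male 84; leaving out single mice gave 0 to 2. For DW against p21 (2 called), the same settings gave 0, and single mice 0 to 4. In females, SW against p21 gave 3 instead of 1 with only the compared groups. Male against female gave 1 instead of 0 with DESeq2 at p21 (Cd55), and 0 to 1 at p28 DW when single mice were left out (Pdgfrb, without DW female 76 or 77). Pdgfrb in females, DW against p21, changed sign to 0.094 without DW females 82 and 83, a setting chosen after seeing the data. The other settings were another pseudocount, no filter and the run of animal numbers. No setting called a marker for DW minus SW. No paired analysis was possible because the groups share no animal number. With 4 mice per group, the spread between mice and not read depth limits these comparisons.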
